A study of Arabidopsis thaliana with 72 samples.

Results

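Leaves of the sensitive *Arabidopsis thaliana* deme T6(c-) were compared after 3 h in nutrient solution buffered at pH 8.3 and after 3 h at pH 5.9. The 4 columns of the deposited expression table that hold these plants were chosen, 2 for each pH, out of 24 columns in all. They stand for 12 of the 72 libraries of the series, because each column combines the 3 libraries that share its description. All 18603 genes of the table were described.

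A deme is a local natural population, and T6(c-) comes from soils derived from silica rock, whereas the second deme of the study, A1(c+), lives near calcareous soils. Seedlings of both demes were grown in diluted Hoagland solution at pH 5.9 until an age of 15 days. They were then kept at pH 5.9 (control), moved to pH 8.3, or moved to pH 8.3 with 10 mM NaHCO3 (bic), and leaves were taken after 3 h or 48 h. All solutions, the control included, held the organic buffers MES and BTP in proportions set by the pH, so buffer composition and pH cannot be told apart. Leaves of 12 plants for each deme and treatment went into pooled biological replicates, so p-values measure only the spread between such pools.

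Iron dissolves poorly at alkaline pH, and plants that run short of it switch on a known set of genes. A group of related bHLH transcription factors (bHLH38, bHLH39, bHLH100 and bHLH101), together with the factor FIT in roots, activate genes of iron reduction, uptake and movement. POPEYE (PYE) and the ubiquitin ligase BRUTUS (BTS) tune the response, and ferritins, which store iron in plastids, are repressed when iron is scarce and induced when it is plentiful. Outside the cell, alkaline pH also weakens the proton gradient across the plasma membrane and stiffens the cell wall, whose loosening proteins work best in acid.

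The promoters of a few iron genes are shown first, because iron genes were among those with the largest differences and the closest replicates below. Each line gives the 250 bases before the RefSeq start of the gene (build TAIR10.1, strand of the gene), with the core of the abscisic acid response element, ACGTG on either strand, in capitals. The G-box CACGTG, a site that bHLH and bZIP factors can bind, contains this core. The activator bHLH38 (chr3:21085246-21085495, minus strand) held a G-box from -97 to -92, while its neighbour bHLH39 (chr3:21087711-21087960, minus strand) held no match. The ferritin FER1 (chr5:230052-230301, minus strand) held a core from -10 to -6.
bHLH38: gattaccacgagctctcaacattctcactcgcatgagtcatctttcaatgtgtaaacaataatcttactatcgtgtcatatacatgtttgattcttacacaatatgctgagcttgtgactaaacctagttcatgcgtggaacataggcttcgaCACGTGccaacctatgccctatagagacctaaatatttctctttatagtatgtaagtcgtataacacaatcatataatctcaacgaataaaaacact
bHLH39: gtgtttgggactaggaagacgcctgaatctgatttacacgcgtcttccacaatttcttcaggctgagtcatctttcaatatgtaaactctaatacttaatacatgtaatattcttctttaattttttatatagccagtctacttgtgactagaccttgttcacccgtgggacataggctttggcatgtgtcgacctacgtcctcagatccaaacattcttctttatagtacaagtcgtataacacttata
FER1: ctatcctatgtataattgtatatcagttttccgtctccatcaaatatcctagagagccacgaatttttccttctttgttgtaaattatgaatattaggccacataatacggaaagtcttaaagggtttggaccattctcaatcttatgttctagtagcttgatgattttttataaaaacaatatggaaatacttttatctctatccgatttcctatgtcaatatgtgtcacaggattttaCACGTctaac

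The columns of T6(c-) at 3 h held 91918000 to 120580000 reads (to the nearest 1000), and the values of the table are the log2 of CPM, the reads of a gene scaled to the total reads of its column, given here as CPM. The spread and the makeup of these columns bear on every result. The replicates at pH 5.9 were unusually close, with a median variance to mean ratio of their reads of 1.65 (1 is counting noise alone), against 9.61 for the replicates at pH 8.3 and 17.5 for those under bic. Replicate 2 at pH 8.3 also carried transcripts that the other columns of the comparison lacked. A set of 24 transcripts was at or under 0.1 CPM in all pH 5.9 columns of T6(c-) and at 5 CPM or more in both of 2 columns from elsewhere in the series, replicate 2 of A1(c+) under bic at 3 h and replicate 1 of T6(c-) at pH 8.3 after 48 h. Their summed level was 0.609 and 0.498 CPM at pH 5.9, 0.845 CPM in replicate 1 at pH 8.3 and 64.3 CPM in replicate 2 at pH 8.3. All 24 were over 0.1 CPM in that replicate, against 1 of 24 in replicate 1, and the sum reached 542 CPM in the A1(c+) column used to choose them. Another 12 transcripts, at 5 CPM or more in the T6(c-) pH 5.9 columns and at or under 0.1 CPM in those 2 other columns, had a median ratio of replicate 2 to replicate 1 at pH 8.3 of 0.842. None of either set was among the differentially expressed genes (DEGs) below. For the 24 transcripts the wide gap between the pH 8.3 replicates itself counts against a call. Their absence therefore says nothing on whether replicate 2 shifted other genes. Each gene described below as a DEG that lost its call without replicate 2 is marked as such.

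**Figure D1:**
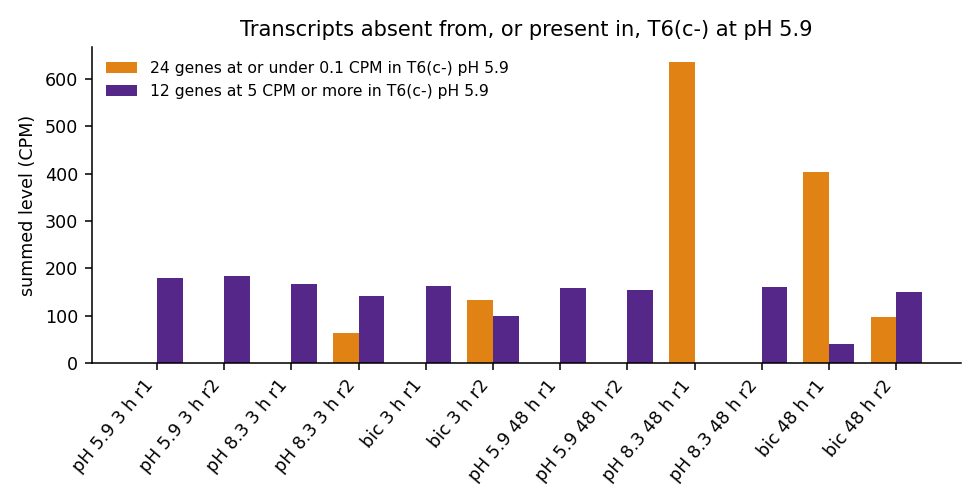
Summed level in CPM (vertical, linear from 0) in each T6(c-) column (horizontal; r1 and r2 are the replicates) of the 24 transcripts absent from T6(c-) at pH 5.9 (orange bars) and of 12 transcripts with the reverse pattern (purple bars). At 3 h the 24 transcripts sum to 0.845 CPM in replicate 1 and 64.3 CPM in replicate 2 at pH 8.3.

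The labelled tissue was checked against marker genes, of which none was a DEG. The 7 leaf mesophyll markers summed to 48475 and 49521 CPM at pH 5.9 and to 37359 and 41061 CPM at pH 8.3, and all were detected in every column. Of 8 root markers 3 were in the table, with sums of 229 to 237 CPM in the 4 columns. The 5 guard cell markers summed to 50.6 and 50.9 CPM at pH 5.9 and to 67.5 and 74.1 CPM at pH 8.3. The 5 phloem markers summed to 161 to 169 CPM in the 4 columns. Of 6 flower and seed markers only PI was in the table, at 1.21 and 1.55 CPM and at 2.1 and 2.46 CPM. The part of cell composition in the results was not tested, and in such bulk samples fewer cells of a type and less RNA per cell cannot be told apart.

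After 3 h at pH 8.3, iron deficiency genes were upregulated and iron storage genes downregulated, jasmonate and water stress genes and cutin genes were upregulated in part, and 7 genes of a shoot apex list drawn up after the values had been seen were downregulated. DEGs were the genes with an adjusted p under 0.05 (limma, Benjamini-Hochberg over all genes, 3 groups of T6(c-) at 3 h) and a log2 fold change beyond 1. There were 702 DEGs, 3.77% of the genes tested. Of these, 393 were upregulated (2.11%) and 309 downregulated (1.66%), while the median log2 fold change of all genes was -0.01. The changes were mostly of moderate size, with a median log2 fold change of 1.33 among upregulated and -1.28 among downregulated DEGs. Only 56 upregulated and 50 downregulated DEGs passed a log2 fold change of 2. All 702 DEGs had columns at pH 8.3 outside the range of those at pH 5.9, as had 79.8% of all genes tested.

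The number of DEGs depended on how the spread between replicates was estimated. Without replicate 2 at pH 8.3 there were 796 DEGs, which included 312 of the 393 upregulated and 238 of the 309 downregulated DEGs. Replicate 1 at pH 8.3 alone moved in the same direction in all 702 DEGs and beyond 1 in 362 upregulated and 297 downregulated ones. The DEGs were called from this column among others, so its direction is no independent check. With the close pH 5.9 replicates averaged and counted as 1 column, 77 DEGs were left (60 upregulated and 17 downregulated), all among the 702. Leaving out a single pH 5.9 column gave 75 (without replicate 1) or 67 (without replicate 2), and leaving out replicate 1 at pH 8.3 gave 393. With all 12 groups of the series sharing 1 estimate of the spread, no gene passed: the smallest adjusted p of limma was 0.0978, and 1808 genes had an unadjusted p under 0.05. Without 7 columns of the series that carried the transcripts above or came from libraries marked apart in the sequencing list, the fit over all groups gave 165 DEGs, and 75 upregulated and 53 downregulated DEGs were among them. The smallest two-sided p of an exact permutation test with 2 columns a group is 0.333, so the calls rest on the model across genes.

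**Figure D2:**
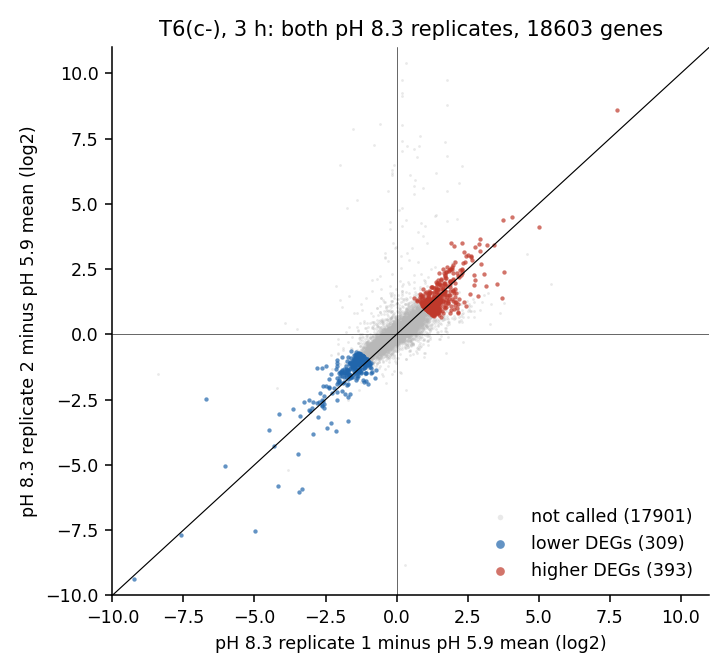
Log2 difference from the mean of the pH 5.9 columns for each gene, in replicate 1 (horizontal) and replicate 2 (vertical) at pH 8.3, with DEGs coloured (red upregulated, blue downregulated) and the diagonal marking equal differences. The 702 DEGs lie on the same side of 0 in both replicates, whereas 57 genes, none of them DEGs, lie beyond 2 in replicate 2 and within 1 in replicate 1.

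Of 12 regulators and signals of iron deficiency, 10 were upregulated and none downregulated, with a median log2 fold change of 2.47 over the 12. The activator bHLH38 was at 18.6 and 19.5 CPM at pH 5.9 and at 129 and 194 CPM at pH 8.3 (log2 fold change 3.05, SE 0.19, limma adjusted p = 0.00179, 95% interval 2.58 to 3.53). Its neighbour on chromosome 3, bHLH39, was at 8.09 and 8.39 CPM and at 62.0 and 90.6 CPM (3.18, adjusted p = 0.00124). Both pH 8.3 columns of these genes lay far above both control columns. The related bHLH100 rose from 10.1 and 10.2 CPM to 77.6 and 128 CPM, and bHLH101 from 1.28 and 1.65 CPM to 7.37 and 9.68 CPM. PYE and BTS restrain the response. BTS, which marks regulators of the pathway for degradation, rose from 74.0 and 72.1 CPM to 360 and 420 CPM, and the repressor PYE from 5.56 in both columns to 26.9 and 27.3 CPM (2.28, adjusted p = 0.000411). AT1G74770, annotated as a zinc ion binding protein, rose from 4.43 and 4.53 CPM to 15.5 and 27.1 CPM.

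Among the upregulated iron genes were 3 that the annotation leaves uncharacterized. AT1G47400 and AT1G47395 lie next to each other on chromosome 1 (TAIR10.1, 17385707 to 17386485 and 17382998 to 17383830), and AT2G30766 lies on chromosome 2. AT1G47400 was at 9.30 and 9.90 CPM at pH 5.9 and at 87.2 and 102 CPM at pH 8.3, with a log2 fold change of 3.3 (SE 0.09, adjusted p = 0.000411). AT1G47395 was at 25.1 and 24.5 CPM and at 191 and 227 CPM (3.07). AT2G30766 was at 132 and 131 CPM and at 595 and 607 CPM (2.2, adjusted p = 0.000394), and no gene in the table had a smaller adjusted p. Where reads of AT1G47395 and AT1G47400 could be shared between similar copies, the split between them is uncertain. The members of the list that were not DEGs were AT1G18910 with a log2 fold change of 0.75 and FIT with 0.84. FIT, which acts mainly in roots, stood at 1.94 and 2.16 CPM at pH 5.9 and at 3.36 and 4.02 CPM at pH 8.3.

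**Figure D3:**
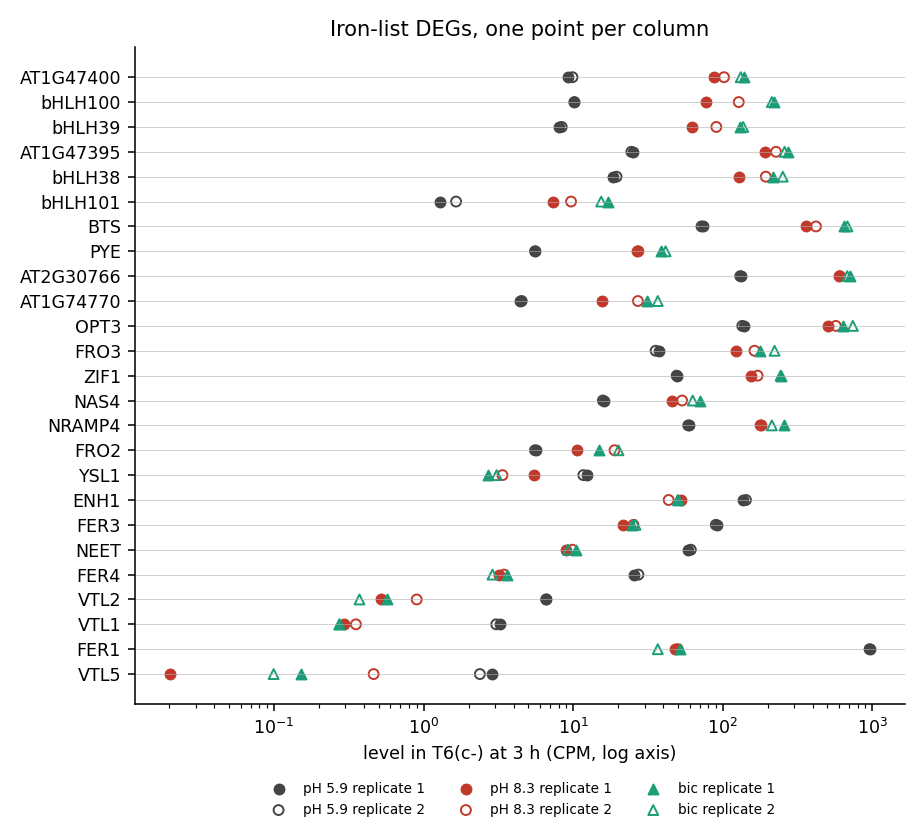
Level in CPM (horizontal, log axis) of each DEG of the iron lists (rows) in the T6(c-) columns at 3 h, with 1 point a column, filled for replicate 1 and open for replicate 2, and 1 colour a treatment. bHLH38 stands at 18.6 and 19.5 CPM at pH 5.9 and at 129 and 194 CPM at pH 8.3, and FER1 at 966 and 958 CPM and at 47.8 and 50.1 CPM.

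Transport genes were mixed. Of 15 genes of iron uptake and transport in the table, 6 were upregulated and 1 downregulated (median log2 fold change 0.17). The upregulated ones serve movement of iron within the plant as well as uptake. OPT3, a phloem transporter that informs roots of the iron status of the shoot, rose from 138 and 135 CPM to 508 and 570 CPM (1.98, adjusted p = 0.000858). The mitochondrial ferric reductase FRO3 rose from 37.3 and 35.6 CPM to 123 and 163 CPM. ZIF1, which loads the metal chelator nicotianamine into the vacuole, rose from 49.7 and 49.2 CPM to 154 and 171 CPM. The nicotianamine synthase gene NAS4 rose from 16 and 15.8 CPM to 46.0 and 53.5 CPM, and NRAMP4, which exports iron from the vacuole, from 59.6 and 58.8 CPM to 181 and 179 CPM. FRO2, the ferric reductase known from the root surface, rose from 5.63 and 5.56 CPM to 10.6 and 18.9 CPM, but was not a DEG without replicate 2. The downregulated gene was YSL1, a transporter of iron bound to nicotianamine, from 12.4 and 11.7 CPM to 5.50 and 3.37 CPM. IRT1, the root iron transporter, was at 2.42 and 2.69 CPM at pH 5.9 and at 1.41 and 10.9 CPM at pH 8.3, so that the columns overlapped.

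Iron storage genes showed the opposite direction, with 8 of 9 downregulated and a median log2 fold change of -3. FER1 was at 966 and 958 CPM at pH 5.9 and at 47.8 and 50.1 CPM at pH 8.3 (-4.30, SE 0.15, adjusted p = 0.000516, 95% interval -4.68 to -3.91). FER3 fell from 91.0 and 89.9 CPM to 21.6 and 25.3 CPM, and FER4 from 25.7 and 27.3 CPM to 3.18 and 3.45 CPM. In all 3 ferritins the replicates at each pH lay close together. FER2, a ferritin known from seeds, was not a DEG (-0.20, adjusted p = 0.604). NEET, an iron-sulfur protein, fell from 58.8 and 61.2 CPM to 8.95 and 9.89 CPM, and the rubredoxin gene ENH1 from 137 and 143 CPM to 52.7 and 43.5 CPM. The VTL genes encode proteins related to vacuolar iron transporters. VTL1 fell from 3.22 and 3.06 CPM to 0.292 and 0.353 CPM, VTL2 from 6.54 and 6.6 CPM to 0.523 and 0.900 CPM, and VTL5 from 2.85 and 2.38 CPM to 0.0201 and 0.464 CPM. The adjusted p of VTL5, 0.0498, was the largest of any DEG.

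Of the 18 DEGs among regulators and storage genes, all 18 passed without replicate 2 at pH 8.3. With the pH 5.9 replicates counted as 1 column, or without either of them, 14 of 18 passed. Without the 7 columns named above 4 of 18 passed, and with all 12 groups none did (limma adjusted p from 0.16 to 0.68).

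The upregulated DEGs with the largest fold changes, among genes with at least 1 CPM in a group, were led by a gene silent in the control. PRA1.F4, a prenylated RAB acceptor, had no read in either pH 5.9 column and stood at 0.936 and 1.70 CPM at pH 8.3, at least 50-fold above the 3-read floor of 0.0264 CPM. The gene also varied within groups, at 0 and 7.77 CPM in A1(c+) at pH 5.9 and at 0 and 0.829 CPM in T6(c-) under bic. In T6(c-) at pH 5.9 after 48 h it was at 2.22 and 3.22 CPM. Its adjusted p was 0.0479, and it was not a DEG without replicate 2. CYP94B3, which oxidises the active jasmonate conjugate and so helps to end its signal, rose from 0.256 and 0.253 CPM to 8.42 and 4.51 CPM (4.57, SE 0.76, adjusted p = 0.0131). GH9C1, a glycosyl hydrolase of the endoglucanase family, rose from 0.0883 and 0.0961 CPM to 1.61 and 2.15 CPM. RAP2.6, an ERF transcription factor, rose from 0.680 and 0.620 CPM to 8.79 and 13.7 CPM, and UGT76B1, a glycosyltransferase that acts in defence, from 1.12 and 0.952 CPM to 11.1 CPM in both columns. Neither was a DEG without replicate 2. The uncharacterized AT5G05220 (0.203 and 0.149 to 0.875 and 2.00 CPM) and the defensin-like gene AT1G13607 (0.212 and 0.367 to 2.2 and 1.85 CPM) also lost their calls without it. The other 5 of the 12 largest were the iron genes bHLH38, bHLH39, bHLH100, AT1G47395 and AT1G47400.

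DIR1, a lipid-transfer protein known for long-distance defence signalling, was at 3.48 and 2.68 CPM at pH 5.9 and had no read in either column at pH 8.3, at least 106-fold lower against a 3-read floor of 0.0290 CPM. Of the 12 largest decreases 5 came from 1 stretch of chromosome 4 (TAIR10.1, 11844242 to 11855439), where AT4G22485, AT4G22490, AT4G22505 and AT4G22513 are annotated as bifunctional inhibitor or lipid-transfer proteins and AT4G22475 is uncharacterized. AT4G22485 fell from 9.86 and 9.12 CPM to 0.292 and 0.0464 CPM, AT4G22505 from 38.1 and 35.0 CPM to 3.35 and 0.548 CPM, and AT4G22490 from 14.8 and 14.6 CPM to 1.91 and 1.05 CPM. AT4G22475 overlaps AT4G22485, the kit kept no strand, and the copies are related, so reads could be shared and the members are not independent. AT3G05727, annotated as an S locus-related glycoprotein binding protein, fell from 9.27 and 9.48 CPM to 0.925 and 0.148 CPM. CDEF1, a lipase-like enzyme that can break down cuticle, fell from 13.5 and 14 CPM to 1.25 and 0.566 CPM (-4.03, adjusted p = 0.00452). All 8 of these genes passed without replicate 2 at pH 8.3, and none passed with the pH 5.9 replicates counted as 1. FER1, VTL5 and the shoot apex genes STM and CYP78A5 made up the rest of the 12.

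Genes of jasmonate, the wound and defence hormone, had positive log2 fold changes in every measured member of 3 lists, but few passed the test. Of 13 biosynthesis genes 2 were DEGs, the allene oxide cyclase gene AOC1 (52.6 and 53.0 to 145 and 93.2 CPM) and the lipoxygenase gene LOX4 (11.7 and 12.4 to 35.2 and 19.0 CPM), and the median log2 fold change was 0.84. Of 12 genes of JAZ repressors, which block jasmonate signalling until they are degraded, JAZ9 alone was a DEG (236 and 240 to 599 and 390 CPM; median of the list 0.58). Of 10 genes of jasmonate turnover and targets 5 were upregulated, with a median of 1.70. The vegetative storage protein gene VSP1 rose from 99.3 and 99.7 CPM to 833 and 489 CPM (2.68, SE 0.25, adjusted p = 0.00468), and VSP2 from 185 and 187 CPM to 788 and 553 CPM. JRG21 rose from 3.94 and 4.00 CPM to 26.2 and 19.2 CPM, and MYC2, the master transcription factor of the pathway, from 30.6 and 29.5 CPM to 105 and 69.7 CPM. Replicate 1 at pH 8.3 was the higher column for each of these genes. The list medians were 1.07, 0.81 and 2.12 in replicate 1 and 0.66, 0.19 and 1.25 in replicate 2. Without replicate 2, 7 of 13, 4 of 12 and 8 of 10 were DEGs, and with the pH 5.9 replicates counted as 1 column none was.

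Salicylate genes gave 4 upregulated of 18 (median 0.68). NIMIN1, which binds the salicylate co-activator NPR1, rose from 2.70 and 2.80 CPM to 7.45 and 10.4 CPM, and the glutaredoxin gene GRX480 from 5.75 and 6.39 CPM to 19.4 and 16.2 CPM. The salicylate exporter gene EDS5 (7.83 and 7.29 to 19.6 and 13.8 CPM) and the salicylate methyltransferase gene BSMT1 (0.0972 and 0.0874 to 1.31 and 0.501 CPM) completed the 4, of which GRX480 and EDS5 lost their calls without replicate 2. Among 18 rapidly induced stress transcription factors 3 were upregulated: RRTF1, WRKY18 (9.77 and 10.4 to 31.0 and 24.5 CPM) and NAC019. Of 22 genes of abscisic acid and osmotic stress 4 were upregulated (median 0.78). RD29A, a desiccation gene, rose from 97.4 and 98.0 CPM to 349 and 282 CPM (1.68, adjusted p = 0.00484), and RD22 from 669 and 665 CPM to 1779 and 1534 CPM. Without the 7 columns 3 genes of this list passed, RD29A and RD22 among them, and with the pH 5.9 replicates counted as 1 none did. KIN2 and COR47, induced by cold and drought, were the others.

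Of 13 sulfur deficiency genes 3 were upregulated, with GGCT2;1, which degrades glutathione, at 3.54 and 3.52 CPM and at 12.4 and 8.07 CPM. SDI1 and LSU3, which mark sulfur shortage, were the other two. Of 12 phosphate starvation genes the ribonuclease gene RNS1 rose, with 0.777 and 0.690 CPM at pH 5.9 and an uneven 9.77 and 1.95 CPM at pH 8.3, and the phosphate transporter homologue PHO1;H1 fell. The flavonoid list gave 2 upregulated of 12, the MYB regulator of anthocyanins AT1G56650 (20.1 and 19.4 to 55.7 and 40.2 CPM) and UF3GT, which lost its call without replicate 2 at pH 8.3. APX1, the cytosolic ascorbate peroxidase, a haem enzyme, was at 1367 and 1384 CPM at pH 5.9 and at 539 and 457 CPM at pH 8.3 (-1.47, SE 0.11, adjusted p = 0.00266) and was the only DEG among 12 genes of superoxide, peroxide and copper proteins.

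Of 7 touch and calcium genes CML37 rose and XTH22 fell, of 7 heat shock genes HSP17.6II rose (0.442 and 0.498 to 1.11 and 1.03 CPM), and of 15 auxin-responsive genes IAA29 fell (3.38 and 4.12 to 1.43 and 1.36 CPM). CML37, HSP17.6II and IAA29 lost their calls without replicate 2 at pH 8.3.

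Genes closest to the transport of protons and carbonate passed the test in few cases. None of the 9 plasma membrane proton pump genes was a DEG, and their log2 fold changes ran from -0.54 to 0.26. The protein kinase gene PKS5, an inhibitor of the pump AHA2, rose from 13.0 and 13.3 CPM to 28.9 and 24.2 CPM and was the only DEG of 10 genes of pump regulation and sodium exchange. Of 11 genes of organic acid metabolism the malic enzyme gene NADP-ME3 alone rose (0.618 and 0.611 to 1.96 and 2.34 CPM). Of 6 beta carbonic anhydrase genes, whose enzymes interconvert CO2 and bicarbonate, BCA3 alone fell (2.37 and 2.45 to 1.15 and 0.863 CPM). No DEG was found among 16 clock genes, 18 antenna genes of the photosystems (median -0.27), 23 aliphatic and 10 indolic glucosinolate genes. A p above the threshold does not show that these genes were unchanged.

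Of 12 xyloglucan endotransglucosylase genes, which cut and rejoin wall polymers, 4 were downregulated and none upregulated (median -0.67). XTH18 fell from 19.6 and 19.9 CPM to 4.53 and 1.52 CPM, and XTH22, also known as a touch gene, from 16.8 and 15.9 CPM to 5.05 and 9 CPM. XTH33 and XTH15 were the others, and XTH18 lost its call without replicate 2 at pH 8.3. Among 11 expansin genes, whose proteins loosen acid walls, EXPA15 (45.4 in both columns to 15.9 and 20.2 CPM) and EXPA4 (56.2 and 57.6 to 26.1 and 28.6 CPM) fell and EXPA16 rose (1.89 and 1.80 to 7.38 and 7.79 CPM). All 12 mitotic cell cycle genes had negative log2 fold changes (median -0.92), but only KNOLLE, which builds the cell plate, and CDKB1;2, a mitotic kinase, were DEGs. Without replicate 2 at pH 8.3, 5 of the 12 were, and CDKB1;2 was not among them.

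**Figure D4:**
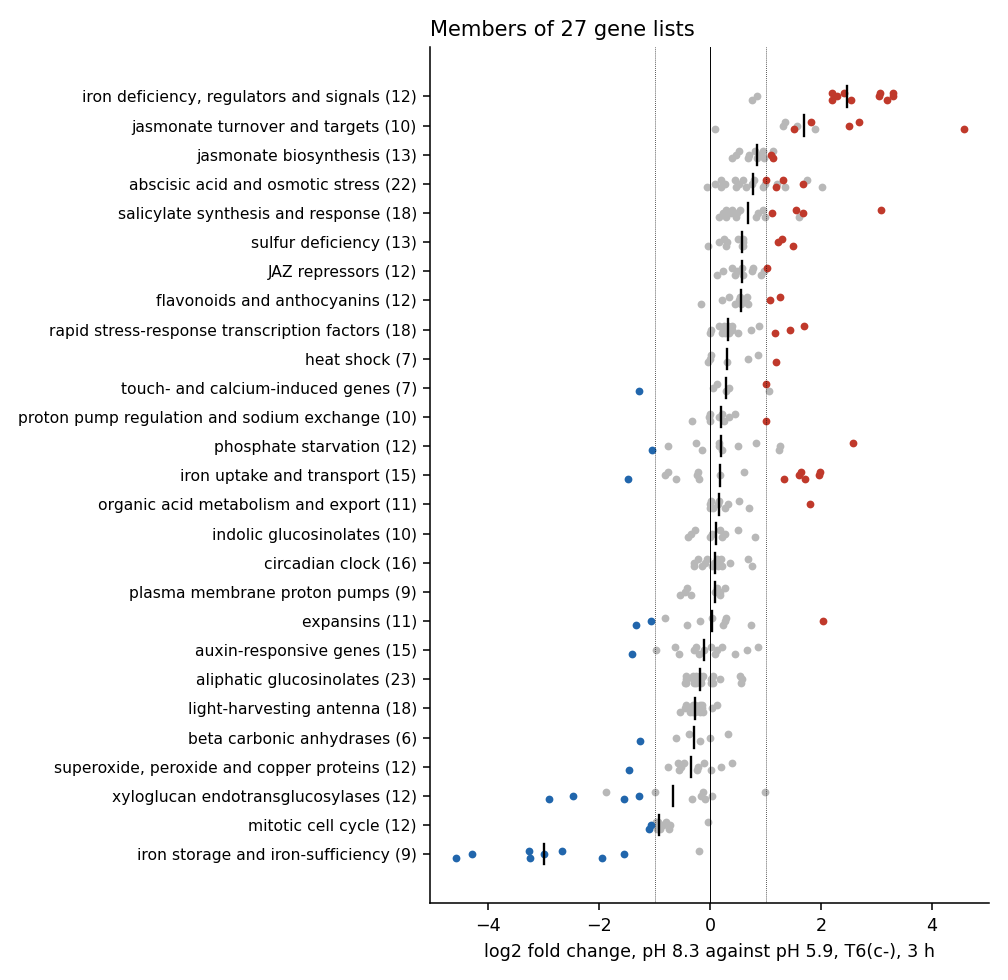
Log2 fold change (pH 8.3 minus pH 5.9, T6(c-), 3 h) of every measured member of each gene list, 1 point a gene, with upregulated DEGs in red, downregulated DEGs in blue, other genes in grey, a bar at the list median and the number measured in brackets. The list of iron regulators has its median at 2.47 and iron storage at -3, while proton pumps lie between -0.54 and 0.26.

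Additional lists were drawn up after the values had been seen, and so describe them only. Of 15 genes of the shoot apex and leaf boundary 9 were in the table and 7 were downregulated. STM, which keeps meristem cells undifferentiated, fell from 5.12 and 4.96 CPM to 0.221 and 0.390 CPM (-4.08, SE 0.57, adjusted p = 0.00895). KNAT1, of the same homeobox family, fell from 9.77 and 9.31 CPM to 1.60 and 1.62 CPM, and CYP78A5, a cytochrome of the apex margin, from 5.50 and 5.15 CPM to 0.302 and 0.631 CPM. KNAT2, KNAT6, LSH3 and LSH4 were also DEGs. The meristem receptor gene CLV1 was at 48.1 and 48.4 CPM and at 46.9 and 45.8 CPM and was not a DEG, nor was BOP2. How much apex was cut with the leaves in each pool was not tested. With the pH 5.9 replicates counted as 1, KNAT1 alone was left, and without replicate 2 at pH 8.3 there were 5, LSH3 and LSH4 no longer among them.

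Of 17 measured genes of cutin and wax synthesis, the lipids of the leaf surface, 10 were upregulated and none downregulated, with a median log2 fold change of 1.11. The fatty acid hydroxylase gene CYP86A4 rose from 2.92 and 2.59 CPM to 8.99 and 13.5 CPM (2.00, SE 0.20, adjusted p = 0.00538), and CYP86A7 from 1.93 and 1.78 CPM to 7.41 and 9.57 CPM. KCS6, which elongates wax precursors, rose from 125 and 129 CPM to 365 and 321 CPM, CER1, of alkane formation, from 74.4 and 74.9 CPM to 181 and 163 CPM, and the acyltransferase gene GPAT4 from 33.4 and 33.8 CPM to 78.4 and 77.9 CPM. CYP86A2, CYP77A6, KCS1, WSD1 and LACS2 were the others. Of the 17, 9 passed without replicate 2 at pH 8.3 (LACS2 did not), 5 with the pH 5.9 replicates counted as 1 and 5 without the 7 columns.

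Promoters of 300 bases (250 before to 50 after the RefSeq start, TAIR10.1) were read for 18535 genes, and motifs were searched on both strands. The G-box CACGTG was found in 15.8% of the 393 upregulated and 4.53% of the 309 downregulated DEGs, against 9.06% of all promoters. The core ACGTG was found in 43.8% and 25.6%, against 27.9%. The W-box core TTGAC of WRKY factors was at 51.7% and 46.0%, against 50.8%, and the GCC-box GCCGCC of ERF factors at 2.29% and 0.971%, against 2.69%. The drought-responsive element ACCGAC was at 8.4% and 3.24%, against 6.45%, the evening element AAAATATC at 10.2% and 6.47%, against 7.35%, and the CAMTA core CGCGT at 9.41% and 7.12%, against 9.68%. Of the 16 upregulated iron genes 5 held a G-box (bHLH38, bHLH100, BTS, FRO3 and OPT3). Of the 8 downregulated iron storage genes 2 held it as well (FER3 and FER4). These shares are descriptions of letters, not of binding.

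The bic treatment shared pH 8.3 and differed by its 10 mM NaHCO3. Both comparisons use the same pH 8.3 columns, so their values are given side by side. Against pH 8.3, 405 genes were DEGs under bic (2.18%), 20 higher (0.108%) and 385 lower (2.07%), and none with all 12 groups, where 954 genes had an unadjusted p under 0.05 (limma). Leaving out either pH 5.9 column also left 0 DEGs, leaving out replicate 1 at pH 8.3 left 13, and leaving out replicate 2 under bic gave 710. Replicate 2 under bic carried 133 CPM of the 24 transcripts and replicate 1 carried 0.936 CPM. Of the 12 iron regulators and signals bHLH100 alone was a DEG under bic, higher than at pH 8.3 (221 and 213 CPM, 1.12 on the log2 scale, adjusted p = 0.0357). The median difference of the 12 was 0.564. Smaller rises at an adjusted p under 0.05 (limma) were those of bHLH101 (0.94), bHLH39 (0.84), BTS (0.77), PYE (0.56), AT1G47400 (0.52) and AT2G30766 (0.21). AT1G18910 (9.45 and 10.4 CPM) and FIT (2.02 and 2.5 CPM) were lower under bic than at pH 8.3 in both columns. BTS was at 643 and 682 CPM and FER1 at 51.7 and 36.8 CPM, and neither differed from pH 8.3 beyond the limit. Of the other genes described, salicylate genes were lower under bic than at pH 8.3 in 9 of 18, and rapid stress factors in 6 of 18. NIMIN1 was at 0.936 and 1.47 CPM under bic, below its 2 control columns, WRKY18 at 8.01 and 8.90 CPM, and UGT76B1 at 0.228 and 1.38 CPM. VSP1 was at 453 and 363 CPM and RD29A at 340 and 255 CPM, and neither differed from pH 8.3 by the test.

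The fit for the tolerant deme A1(c+) at 3 h also held the T6(c-) groups at pH 5.9 and pH 8.3. These 4 groups shared 1 estimate of the spread, whereas the T6(c-) calls above came from its 3 groups alone. A1(c+) was compared with its own control columns. It had 1633 DEGs (8.78%), 159 higher (0.855%) and 1474 lower (7.92%), and the median log2 fold change of all its genes was -0.27, a shift that TMM factors or quantile normalization removed (0.00 and 0.02). Of the upregulated DEGs of T6(c-), 50 were upregulated in A1(c+). They were 12.7% of the T6(c-) genes, beside a background of 0.855%, and 31.4% of the A1(c+) genes, beside 2.11%. Of the downregulated ones 209 were shared. They were 67.6% of the T6(c-) genes, beside 7.92%, and 14.2% of the A1(c+) genes, beside 1.66%. With TMM factors the shares of the T6(c-) genes were 22.9% and 55.0%, beside backgrounds of 1.72% and 4.48%, and with quantile normalization 22.6% and 38.2%, beside 2.11% and 2.51%. In A1(c+), 27 genes upregulated in T6(c-) were downregulated (18 with TMM factors, 12 with quantile normalization).

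The difference of the responses itself, T6(c-) minus A1(c+), passed the test in 481 genes (2.59%), 444 positive (2.39%) and 37 negative (0.199%), around a median difference of 0.25 over all genes. With TMM factors 205 passed, with quantile normalization 139, and with all 12 groups none (1357 genes at an unadjusted p under 0.05, limma). Leaving out 1 column gave 19 (without replicate 1 of T6(c-) at pH 5.9) to 1353 (without replicate 1 of A1(c+) at pH 5.9). It gave 20 without replicate 2 of T6(c-) at pH 5.9, 146 and 87 without replicate 1 or 2 of T6(c-) at pH 8.3, and 735 without replicate 1 of A1(c+) at pH 8.3. The iron genes responded in both demes from different control levels. AT1G47400 was at 0.361 and 0.322 CPM in A1(c+) at pH 5.9 and at 22.2 and 21.7 CPM at pH 8.3, so that its response was smaller in T6(c-) by 2.69 on the log2 scale (adjusted p = 0.00176), and 4 of the 12 regulators and signals had such a smaller response under each scaling. FER1 was at 3304 and 2241 CPM and at 29.5 and 18.1 CPM in A1(c+), and its difference was 2.58 (adjusted p = 0.0231). Of the flavonoid genes 7 of 12 were downregulated in A1(c+) under each scaling, and the difference passed in 7 (5 with quantile normalization). Of the cutin and wax genes 6 of 17 had a higher response in T6(c-) under each scaling. CYP86A7 was at 1.22 and 1.07 CPM in A1(c+) at pH 5.9 and at 0.0607 and 0.170 CPM at pH 8.3. Of the shoot apex genes 6 of 9 were downregulated in A1(c+) as well, 5 with TMM factors or quantile normalization, and no difference passed.

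**Figure D5:**
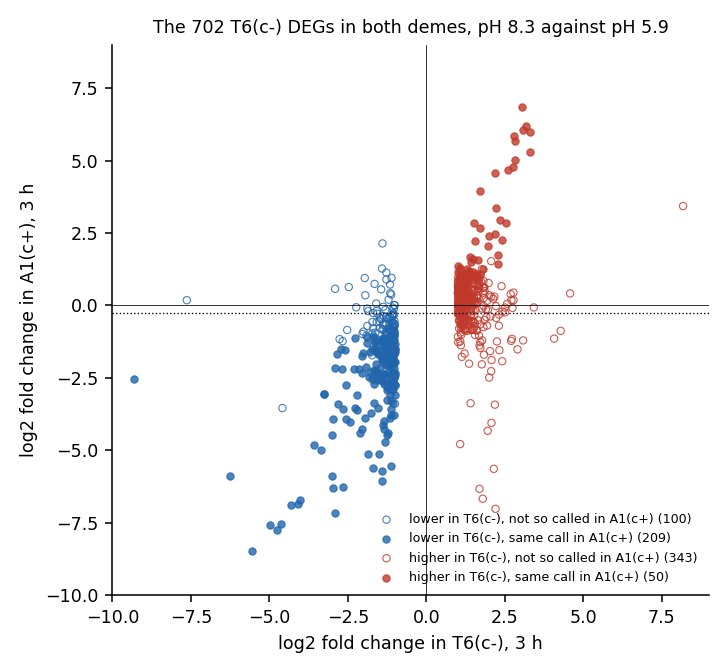
Log2 fold change at pH 8.3 against pH 5.9 after 3 h in T6(c-) (horizontal) and A1(c+) (vertical) for each of the 702 DEGs of T6(c-), red if upregulated and blue if downregulated there, filled if called the same way in A1(c+), with the median of all A1(c+) genes dotted. The downregulated DEGs have a median of -1.55 in A1(c+) and the upregulated ones a median of 0.24.

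After 48 h at pH 8.3, T6(c-) had 543 DEGs against its own 48 h control (2.92%), 153 higher (0.822%) and 390 lower (2.1%). With all 12 groups there were 29. The pH 5.9 replicates at 48 h were close, as at 3 h, with a median variance to mean ratio of 2.04. The replicates at 48 h and pH 8.3 differed strongly (80.4). Of these, replicate 1 carried 635 CPM of the 24 transcripts against 0.850 CPM in replicate 2. Of the 3 h DEGs, 29 upregulated and 7 downregulated were also DEGs at 48 h. They were 7.38% and 2.27% of the 3 h DEGs, beside backgrounds of 0.822% and 2.1%. Of the 48 h DEGs they were 19.0% and 1.79%, beside 2.11% and 1.66%. Without replicate 1 there were 1605 DEGs at 48 h, and the shared genes were 106 upregulated (27%, background 2.61%) and 123 downregulated (39.8%, background 6.02%). Without replicate 2 there were 2743, and without pH 5.9 replicate 1 or 2 of 48 h there were 3 and 2. Leaving out pH 5.9 replicate 1 or 2 of 3 h gave 63 each, since the fit shares its spread.

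The iron genes show how far these replicates lay apart. AT1G47400 was at 36.7 and 37.4 CPM at pH 5.9 after 48 h and at 2.60 and 155 CPM at pH 8.3, and bHLH38 at 1.96 and 2.73 CPM and at 0.854 and 91.1 CPM. FER1 was at 62.5 and 64.7 CPM and at 394 and 27.6 CPM. In each, replicate 2 lay on the side seen at 3 h and replicate 1 on the opposite side, and no gene of the regulator list was a DEG at 48 h. Of the jasmonate target and turnover genes, VSP1 and CYP94B3 had both pH 8.3 columns below the control at 48 h. VSP1 was at 36.4 and 37.0 CPM and at 20.5 and 8.33 CPM, and CYP94B3 at 0.712 and 0.933 CPM and at 0.0938 and 0.0472 CPM. VSP1 was not a DEG at 48 h (-1.49, limma adjusted p = 0.0979). Of these 10 genes 5 were downregulated at 48 h, CYP94B3, JRG21, VSP2, AT2G38240 and TAT3. The 5 upregulated at 3 h were a partly different set, CYP94B3, VSP1, JRG21, VSP2 and MYC2. The time difference passed in 6 of the 10. Over all genes it passed in 524 (2.82%), 129 positive (0.693%) and 395 negative (2.12%), and in none with all 12 groups (2039 at an unadjusted p under 0.05, limma). Leaving out 1 column gave 9 to 12 genes without any 1 pH 5.9 column, 142 and 339 without pH 8.3 replicate 1 or 2 of 3 h, and 1887 and 3974 without pH 8.3 replicate 1 or 2 of 48 h.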

How the data were processed

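Leaf RNA of both demes was sequenced as unstranded 150 bp paired-end reads. The deposited table gives log2 values that the authors made as the reads of a gene plus 0.5, scaled to the total reads of the column (CPM). Reads came back whole (within 0.05) for 100% of values under 200 reads. The labels name FastQC, Trim Galore, Salmon, DESeq2, DESeq 1.18.0 and the build TAIR10, whereas the study's methods name a different aligner, and which of these made the table is not given in the sources used here. Each of the 24 columns stands for a biological replicate of 3 technical libraries, and the last digit of its code was read as the replicate number. The methods mention 2 and, elsewhere, 3 biological replicates.

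Gene models were fitted to the log2 values with limma 3.58.1 (R 4.3.3, trend), as group means of the 3 T6(c-) groups at 3 h. The deme and time differences were interaction terms in fits of 4 groups. These fits also gave the comparisons of A1(c+) at 3 h and of T6(c-) at 48 h. Alternatives were TMM and quantile normalization, other sets of groups, averaging the pH 5.9 replicates, column weights, a floor of 10 CPM, log2(CPM + 1), a replicate block and leaving out each column. In the alternatives that leave a group with 1 column, that column was assumed to vary like the others. The fit without 7 columns and the limit on replicate 1 alone, were chosen after seeing the data. The 7 columns are those that carry the 24 transcripts or whose libraries all have names with a leading A in the sequencing list. Named genes were the 12 largest changes in each direction among DEGs with at least 1 CPM in a group, the DEGs of fixed gene lists and the extremes of each list. Members and lists were chosen with earlier results of these data known. Of the table's genes 18536 matched RefSeq (TAIR10.1), which gave annotation and promoters. Column totals ran from 63506000 to 120580000 reads (to the nearest 1000), which sets the 3-read floor, and floors cover counting error only.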

Additional observations from a re-analysis of the deposited data

Results flagged for a closer look

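The response to pH 8.3 differed between the demes in 481 genes and, in T6(c-), between the times in 524 genes, by the interaction test (limma). Deme differences below are T6(c-) minus A1(c+) on the log2 scale, beside a median of 0.25 over all genes. Time differences are 48 h minus 3 h, where replicate 1 at pH 8.3 after 48 h carried 635 CPM of the 24 transcripts that the control columns lacked. The part of these transcripts in the differences was not tested.

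CYP94B3 had a deme difference of 4.16 and a time difference of -8.05. RAP2.6 had 5.21 and -9.22, and the lipid-transfer gene DIR1 had -6.76 and 9.96. At pH 5.9 after 3 h, CYP94B3 was at 6.11 and 4.52 CPM in A1(c+), against 0.256 and 0.253 CPM in T6(c-). At pH 8.3 it was at 6.81 and 7.2 CPM, against 8.42 and 4.51 CPM. RAP2.6 was at 8.97 and 3.85 CPM in A1(c+) at pH 5.9, against 0.68 and 0.62 CPM in T6(c-). At pH 8.3 it was at 5.5 and 1.28 CPM, against 8.79 and 13.7 CPM. The endoglucanase gene GH9C1 had a deme difference of 5.15. In A1(c+) it was at 0.044 and 0.0537 CPM at pH 5.9 and at 0.0506 and 0.01 CPM at pH 8.3. These levels lay near or under the 3-read floors of those columns (0.0264 to 0.0304 CPM). Iron genes differed between demes with a smaller log2 response in T6(c-): AT1G47400 by -2.69, AT1G47395 by -2.99 and bHLH38 by -3.81. The levels of these genes were higher in T6(c-) than in A1(c+) at both pH values. At pH 5.9 bHLH38 was at 0.29 and 0.188 CPM in A1(c+), against 18.6 and 19.5 CPM in T6(c-). At pH 8.3 it was at 18.8 and 40.8 CPM, against 129 and 194 CPM. FER1, which was downregulated in both demes, differed by 2.58. Time differences were negative for PRA1.F4 (-8.53), UGT76B1 (-6.21) and AT5G05220 (-3.89). They were positive for CDEF1 (5.93) and for the chromosome 4 genes AT4G22505 (7.26), AT4G22513 (6.13) and AT4G22485 (11). The values of PRA1.F4, which had no read at pH 5.9 after 3 h, and of DIR1, which had none at pH 8.3 after 3 h, are fitted values that rest on the 0.5 read the authors added and are no bounds. Each passed an adjusted p of 0.05 (limma), and no difference passed with all 12 groups sharing 1 spread.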

How the results depend on the processing

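For pH 8.3 against pH 5.9 in T6(c-) at 3 h, the 702 DEGs became 0 with all 12 groups, 317 with 12 groups without the columns of A-prefixed libraries, 165 without 7 columns, 110 with the 6 groups at 3 h, 89 with the 6 groups of T6(c-), and 77 with the pH 5.9 replicates averaged as 1. They became 410 on log2(CPM + 1), 275 of the genes with a mean of at least 10 CPM, and 5681 without a limit on fold change. Leaving out 1 column gave 67 to 819. With TMM factors, quantile normalization, column weights, no trend or only the 2 groups, the count stayed between 641 and 855. With all 12 groups the bic, deme and time comparisons had 0 DEGs, A1(c+) at 3 h had 396 and T6(c-) at 48 h had 29. The deme difference had 205 with TMM factors and 139 with quantile normalization, and A1(c+) had 859 with the latter. Leaving out 1 column gave 0 to 710 (bic), 19 to 1353 (deme), 9 to 3974 (time) and 2 to 2743 (T6(c-) at 48 h). The cause of these moves was not tested.

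Over the 3 pairs of T6(c-) groups at 3 h, deviations of same-numbered columns correlated at -0.06 and -0.05 for the pairs with the control. The pH 5.9 replicates differed by little more than counting noise (median variance to mean ratio 1.65). Correlations near 0 therefore cannot show whether the replicate numbers pair those columns. Between pH 8.3 and bic the correlation was 0.44. Replicate 2 of both these groups carried the 24 transcripts (64.3 and 133 CPM), against 0.845 and 0.936 CPM in replicate 1. The part of these transcripts in that correlation was not tested. A replicate block gave 658 DEGs, and 271 (bic), 309 (deme), 138 (time) and 263 (T6(c-) at 48 h).

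Of 138 named genes, all 98 that were DEGs lost their call with all 12 groups, and 3 lost it with TMM factors. Genes that changed sign without 1 column, none of them DEGs, ranged as follows on the log2 scale. MYB76 ran from -0.15 to 1.3, HSP101 from -0.18 to 0.10, NRT2.1 from -3.91 to 0.43 and NADP-ME4 from -0.0145 to 0.0022. ERF1A ran from -0.36 to 0.34, APR2 from -0.123 to 0.0297 and CER4 from -0.44 to 0.11. Without the 7 columns MYB76 was at -0.15, ERF1A at 0.34 and APR2 at 0.0297.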
